A study of Arabidopsis thaliana with 16 samples.

Results

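The subject is the transcript of HSFA2 (AT2G26150), read by 1 probe set (ID.266841_at) of the 22746 probe sets on the array that are no controls. The probe set was chosen by its design for HSFA2 and with its levels on these arrays already known, so those levels are given as a description without a test. The probe table used here does not list it, and the name HSFA2 rests on the array design. In the RefSeq annotation of TAIR10.1, HSFA2 lies on chromosome 2 from 11135624 to 11137792, a span of 2169 bases with 4 annotated transcripts. Sequences of the probes, the promoter and the protein were not used here.

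RNA was taken from whole 7-day-old seedlings of Arabidopsis thaliana and hybridised to 16 arrays, 2 for each of 8 groups. The groups cross 4 genotypes with 2 conditions, growth at 22 °C or a water bath at 37 °C for 1 h. WT is the accession Col-0, and hsfa2 lacks HSFA2 in the same accession. QK is a quadruple knockout of HSFA1a, HSFA1b, HSFA1d and HSFA1e in a mixed background of Col-0 and Ws. A2QK is QK carrying HSFA2 behind the CaMV 35S promoter, a viral promoter active in most plant tissues, and the labels name a single such line, A2QK-10. WT is Col-0 alone, so mixed background and loss of the HSFA1 genes cannot be told apart in QK against WT. In A2QK the probe set can read the resident gene and the transgene, and the labels do not say where the probes lie relative to the lesion of hsfa2 or the end of the transgene.

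HSFA2 is a heat shock transcription factor, a protein that binds heat shock elements in promoters and activates chaperone genes. It is scarce in unstressed plants and is among the most heat-inducible members of its family in Arabidopsis. The HSFA1 proteins are present before stress, respond first, and activate the HSFA2 gene, after which HSFA2 prolongs the response and adds to acquired and lasting heat tolerance. The study set the loss of HSFA1, the loss of HSFA2 and the return of HSFA2 alone side by side.

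The deposited values are log2 levels made by the authors with RMA, and the 2 arrays of each group correlated at 0.959 to 0.995 (Pearson r over probe sets). The range split by genotype, with 0.959 to 0.970 in the WT and QK groups and 0.985 to 0.995 in the hsfa2 and A2QK groups. Comparisons of hsfa2 with WT and of A2QK with QK thus cross this split, and its part in them was not tested. Nothing in the labels tells whether replicate arrays came from different cultures, and the spread behind each p-value is that of these arrays and may be technical. The markers measured for a whole seedling were few: the leaf gene RCA (Rubisco activase) was at 12.20 to 13.09 on all arrays, and the root hair expansin gene EXPA7 at 3.69 to 6.11. With heat, EXPA7 fell in QK (-1.29, limma adjusted p = 0.0164) and A2QK (-1.68, 0.00165), and EXPA18 in hsfa2 (-1.54, 0.0191) and A2QK (-1.97, 0.00419). The heated arrays were also lower for EXPA7 in hsfa2 (4.14 and 4.59, from 5.30 and 5.14) and EXPA18 in QK (5.33 and 4.51, from 5.76 and 6.85). Neither gene passed in WT (-0.90 and -1.27, limma adjusted p = 0.0708 and 0.0634), and their part in the results was not tested. In bulk seedlings fewer cells of a type and less RNA per cell cannot be told apart. The 2 heated QK arrays stood apart from each other in HSFA2 and its linked genes, as described below, so results that rest on them are given with each array.

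HSFA2 was low in every unheated group without the transgene. Its level was 2.60 and 3.89 on the 2 unheated WT arrays, 3.15 and 3.11 in hsfa2, and 2.94 and 2.59 in QK. These arrays overlapped between WT and each mutant, and their levels stood between the 14.4th and the 36.0th percentile of the probe sets on their arrays. The mean difference from WT was -0.12 for hsfa2 and -0.48 for QK, both within the spread of the WT arrays, which differed by 1.29. RMA values have no true zero, and levels this low are compressed, so an unheated loss of HSFA2 could not be resolved by this probe set.

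In heated WT the HSFA2 probe set stood at 12.06 and 11.82, and the mean went from 3.25 ± 0.91 to 11.94 ± 0.17 (log2, SD, n = 2). The rise was 8.69 on the log2 scale, 413-fold on the array scale, and every heated WT array exceeded every unheated one by at least 7.92. On these arrays 68 probe sets (first array) and 89 (second array) were brighter. The change was the 9th largest rise among the 22746 probe sets in WT. The compressed low end makes the fold a value of the array scale and not of molecules.

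In the hsfa2 knockout the heated arrays stood at 3.83 and 4.00, a mean of 3.91 ± 0.12 (SD, n = 2). The difference from heated WT was -8.02 on the log2 scale, and -8.23 to -7.82 between single arrays. No other probe set was lower by as much in heated hsfa2 against heated WT. The heated and unheated hsfa2 arrays did not overlap, and their means differed by 0.78, a change that ranked 1066th among rises with heat in hsfa2. The heated level stood at the 36.0th and 37.1st percentile of its arrays, and the higher unheated WT array lay between both.

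**Figure D1:**
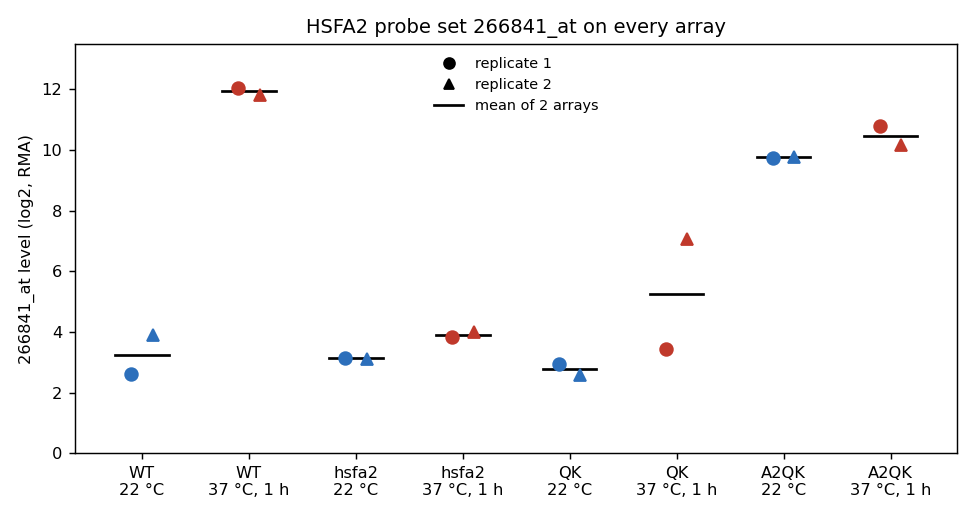
Level of the HSFA2 probe set (log2, RMA, vertical axis) on each of the 16 arrays, by genotype and condition, with circles for replicate 1, triangles for replicate 2 and a line at the mean of 2 arrays. Heated WT and all A2QK arrays sit at 9.75 or above, the 2 heated QK arrays lie far apart at 3.45 and 7.07, and the other arrays lie at 4.00 or below.

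Without the 4 HSFA1 genes the heat response of HSFA2 was smaller and uneven. The heated QK arrays gave 3.45 and 7.07, a mean of 5.26 ± 2.56 (SD, n = 2), against 2.94 and 2.59 without heat. The rise was 0.50 within replicate number 1 and 4.48 within number 2, beside 9.45 and 7.92 in WT. Both heated QK arrays lay below both heated WT arrays, with single-array differences of -8.61 to -4.74. The lower one lay below the heated hsfa2 arrays and the higher one above them, so the order of QK and hsfa2 after heat is not settled by these arrays. The gap of 3.63 between the heated QK arrays was larger than that of 99.8% of probe sets on the same pair.

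The transgenic line held HSFA2 high at both temperatures. Unheated A2QK arrays gave 9.75 and 9.78, which is 7.00 above unheated QK and the 6th largest difference among all probe sets in that comparison. Heated A2QK arrays gave 10.80 and 10.16. They exceeded the unheated ones by 0.38 to 1.05, with a mean difference of 0.71 that ranked 1728th among rises with heat in A2QK. Against heated WT, the difference was -2.17 in unheated A2QK, 4.50-fold lower, and -1.45 in heated A2QK, 2.74-fold lower. Neither group overlapped heated WT. The constant 35S promoter and the resident gene cannot be told apart in the heated level.

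Ordered by their means, the groups ran from heated WT (11.94) through heated A2QK (10.48) and unheated A2QK (9.77) to heated QK (5.26), then heated hsfa2 (3.91) and the unheated WT (3.25), hsfa2 (3.13) and QK (2.77). The first 3 did not overlap each other or any other group. The narrowest gap among them, 0.38 between the A2QK groups, was smaller than the difference between the heated A2QK arrays. Heated QK overlapped heated hsfa2 and unheated WT, heated hsfa2 overlapped unheated WT, and unheated WT overlapped unheated hsfa2 and unheated QK.

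The genes beside HSFA2 on chromosome 2 were measured in part. Of the 3 annotated genes on either side, a single-gene probe set was listed for AT2G26135, which ends 4109 bases from HSFA2, and for AT2G26160, which begins 185 bases from it. AT2G26160 lay between 2.19 and 2.95 and AT2G26135 at 2.91 or below on all 16 arrays, close to the bottom of the scale, where a small change could not be seen. The other 4 neighbours had no listed probe set. With heat in WT, AT2G26160 changed by -0.03 ± 0.18 and AT2G26135 by 0.21 ± 0.22 (log2 ± SE of the limma fit, adjusted p = 0.963 and 0.691). In unheated A2QK against QK, AT2G26160 differed by -0.08 ± 0.18 and AT2G26135 by -0.12 ± 0.22 (limma adjusted p = 0.884 and 0.841).

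Other genes of the pathway were taken from a list of 34 genes tied to HSFA2 in Arabidopsis, and 11 of them had a probe set of their own in the table. The list was chosen with earlier results of these data known, so its counts below describe these arrays and are no independent support. Of 21 heat shock factor genes on another list none had one, and of 21 regulators and partners of HSFA2 1 did, ROF2. The 11 are 7 small heat shock proteins, which hold unfolding proteins in solution (HSP22 of the endoplasmic reticulum, HSP17.6C, HSP17.6B, HSP26.5, HSP15.7, HSP23.5 and HSP17.4B). The others are ROF2, a peptidyl-prolyl isomerase that partners HSP90 and HSFA2, HSA32, a protein of lasting heat tolerance, HOP3, a co-chaperone that bridges HSP70 and HSP90, and FES1A, a partner of HSP70. Changes are limma estimates on the log2 scale with SE, and a gene was called at an adjusted p under 0.05 over all 22746 probe sets. The shares of all probe sets called belong to this fit of all arrays. None was counted for other fits or for unadjusted p-values, so those counts have no background beside them.

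In heated WT and heated hsfa2 the linked genes rose alike in number, although HSFA2 differed by -8.02 between the heated groups. All 11 measured genes rose in WT, with a median of 7.37 (median of all probe sets 0.01), where 3.31% of all probe sets were called raised. All 11 rose in hsfa2, with a median of 8.11 (median of all 0.03), where 5.61% were called raised. HSP22 went from 3.60 and 3.83 to 12.18 and 12.33 in WT, and from 3.85 and 4.00 to 12.01 and 12.07 in hsfa2. HSA32 went from 4.41 and 5.32 to 9.52 and 10.06 in WT, and from 4.43 and 4.84 to 9.64 and 9.69 in hsfa2. For both genes the heated arrays of the 2 lines lay close together, far above all unheated arrays of these lines. The heated HSP22 arrays of hsfa2 both lay below those of WT, and those of HSA32 overlapped.

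Set directly against heated WT, none of the 11 linked genes was called in heated hsfa2 by limma, where 8.01% of all probe sets were called in either direction, and 0 had an unadjusted p under 0.05. The differences ran from -0.34 for HOP3 to 0.23 for HSP17.4B, with a median of -0.12. HSP22 differed by -0.21 ± 0.95 (adjusted p = 0.921) and HSA32 by -0.12 ± 0.28 (adjusted p = 0.838). The SEs, from 0.28 to 1.26, pool the far-apart heated QK arrays. Fitted with the heated WT and heated hsfa2 arrays alone, 0 were called too, in a fit with few degrees of freedom. Neither lack of calls shows equal levels. At 22 °C none of the 11 was called in hsfa2 against WT either, where 7.9% of all probe sets were called in either direction, and 1 had an unadjusted p under 0.05. That gene was ROF2, at 3.95 and 3.58 in hsfa2 against 4.40 and 7.08 in WT (-1.97 ± 0.81, adjusted p = 0.17).

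The unheated WT arrays differed from each other in ROF2 as they did in HSFA2. The second array was higher by 1.29 for HSFA2, and ROF2 went from 4.40 to 7.08, HOP3 from 3.36 to 5.46, FES1A from 4.92 to 6.54 and HSP23.5 from 3.85 to 5.01. These 4 were the linked genes with a gap of at least 1, which 3.98% of all probe sets reached on this pair. Of the 11 genes 8 were higher on the second array, and HSP15.7 (-0.54), HSP17.6C (-0.28) and HSP17.6B (-0.14) were lower. What set this array apart was not tested.

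In QK the linked genes split between the heated arrays as HSFA2 did. From the first to the second heated array HSP17.6C went from 3.54 to 9.50, HSP22 from 3.63 to 8.10 and ROF2 from 4.70 to 7.36, beside 3.45 to 7.07 for HSFA2. Of the 11 genes 10 were higher on the second array, each by at least 1, with a list median of 3.57, while 3.4% of all probe sets were higher by at least 1 there. HSA32 was the exception, at 5.72 and 5.52. On each of the 2 arrays, all of the linked genes except HSA32 were thus high or low together with HSFA2.

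**Figure D2:**
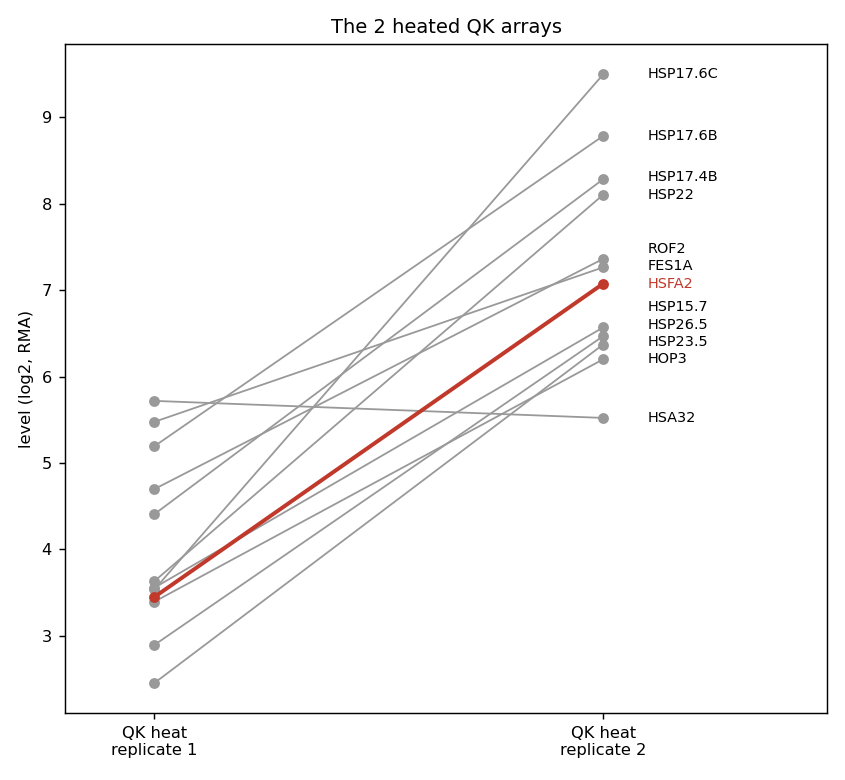
Levels (log2, RMA, vertical axis) of HSFA2, in red, and of 11 HSFA2-linked genes, in grey, on the 2 heated QK arrays, with a line joining the values of a gene. All lines except that of HSA32 run upward from replicate 1 to replicate 2, and HSFA2 goes from 3.45 to 7.07.

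With both heated arrays in the fit, 1 of 11 linked genes was raised by heat in QK, where 2.52% of all probe sets were called raised: HSA32 by 1.03 ± 0.28 (adjusted p = 0.0489). The list median was 2.19 (median of all 0.03), and 9 had an unadjusted p under 0.05. The count of called genes depended on which heated QK array was left out, which also changes the spread pooled for every probe set. The HSA32 call was itself unsteady: the count was 0 for 11 of the 16 arrays left out in turn, and 2 without either unheated WT array. Against heated WT all 11 were lower in heated QK, where 3.33% of all probe sets were called lower, from -4.17 ± 0.28 for HSA32 to -7.47 ± 0.79 for HSP26.5, and the count was 11 without either heated QK array. Fitted with the heated WT and heated QK arrays alone, 2 were called. The SEs pool the spread of all 8 groups. HSP26.5 stood at 2.89 and 6.47 on the heated QK arrays (SD 2.53), against 12.24 and 12.07 in heated WT. Its SE thus understates the spread of the heated QK pair. At 22 °C none of the 11 was called in QK against WT, where 2.19% were called in either direction, and 2 had an unadjusted p under 0.05.

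Without heat, at an HSFA2 level of 9.77, the linked genes of A2QK were graded. HSP22 stood at 11.04 and 10.93 in unheated A2QK, against 3.60 and 3.74 in unheated QK and 12.18 and 12.33 in heated WT. HSP17.4B stood at 4.45 and 5.10 in unheated A2QK, against 2.45 and 4.30 in QK and 11.95 and 11.83 in heated WT. Against heated WT, the mean of HSP22 in unheated A2QK thus differed by -1.27, without overlap. HSP17.4B lay near its unheated WT level (4.17 and 5.17).

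Of the 11 linked genes 7 were higher in unheated A2QK than in unheated QK, where 5.17% of all probe sets were called higher. They were HSP17.6C (8.13 ± 1.26, adjusted p = 0.00284), HSP22 (7.31 ± 0.95), HSP17.6B (5.95 ± 0.80), HSP26.5 (5.12 ± 0.79), HSP15.7 (4.41 ± 0.66), ROF2 (4.11 ± 0.81) and HSA32 (2.25 ± 0.28). HSP23.5 (3.04 ± 0.88, adjusted p = 0.0536), HOP3 (2.19 ± 0.75), HSP17.4B (1.40 ± 0.94) and FES1A (0.94 ± 0.53) did not pass. The list median was 4.11 and the median of all probe sets 0.00. Expressed as a share of the heat rise in WT on the log2 scale, the difference between A2QK and QK at 22 °C was 80.5% for HSFA2 itself. It was 85.7% for HSP22, 81.4% for HSP17.6C, 70.1% for HSP17.6B, 65.1% for ROF2, and down to 19.4% for HSP17.4B and 15.5% for FES1A. Single arrays moved some of these shares: leaving out an unheated QK array gave 6.56% or 32.1% for HSP17.4B, and leaving out an unheated WT array 53.7% or 82.6% for ROF2. The order of neighbouring genes by this share is a description only.

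**Figure D3:**
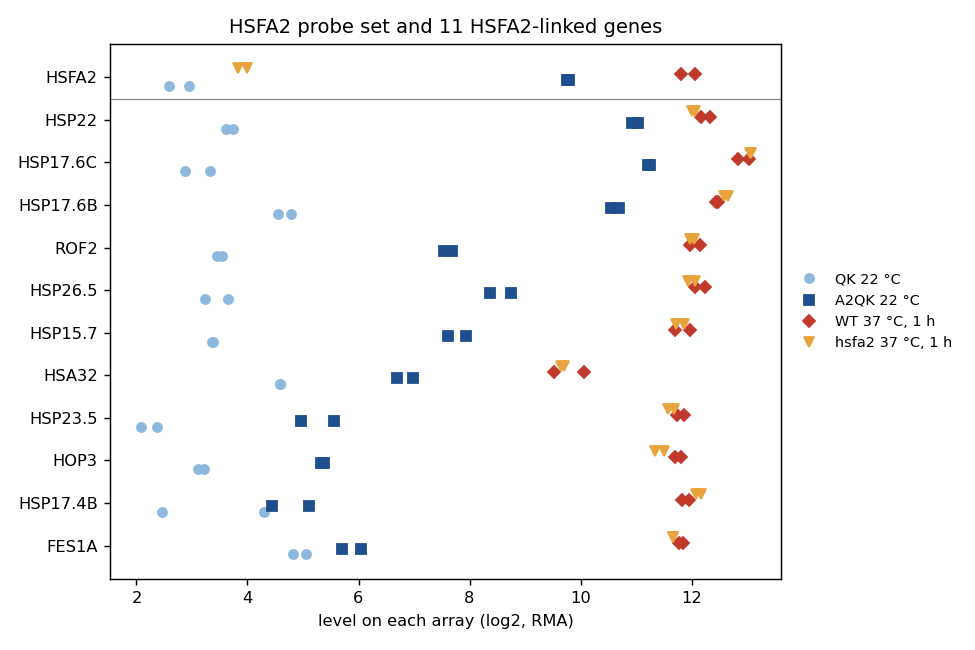
Level on each array (log2, RMA, horizontal axis) of HSFA2 and of 11 HSFA2-linked genes in unheated QK, unheated A2QK, heated WT and heated hsfa2, with genes ordered by the share of the WT heat rise reached in unheated A2QK. HSFA2 in heated hsfa2 lies at 3.83 and 4.00 while the linked genes lie beside their heated WT levels. The unheated A2QK values lie below heated WT throughout, with the smallest gap for HSP22, and lie near unheated QK for FES1A.

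Heat raised further linked genes in A2QK, where HSFA2 itself differed by 0.71 between temperatures. Of the 11 linked genes 8 rose, where 6.59% of all probe sets were called raised. HSP17.4B rose by 6.91 ± 0.94 (adjusted p = 0.000508), HSP23.5 by 5.68 ± 0.88, HOP3 by 5.02 ± 0.75 and FES1A by 4.32 ± 0.53, the 4 that were not called in unheated A2QK. HSP22 (1.17 ± 0.95), HSP17.6B (1.62 ± 0.80) and HSP17.6C (1.75 ± 1.26), the 3 nearest to their heated WT level before heat, did not pass, and stood at 12.16 to 13.02 after heat. The SEs here pool the far-apart heated QK arrays, and all 11 genes were called without either of them or with the A2QK arrays fitted alone. After heat all 11 were higher in A2QK than in QK, where 6.2% of all probe sets were called higher, by 3.66 ± 0.28 for HSA32 up to 7.64 ± 0.79 for HSP26.5. Fitted with the heated A2QK and heated QK arrays alone, 7 were called. HSP26.5 stood at 12.40 and 12.24 in heated A2QK and at 2.89 and 6.47 in heated QK. Its pooled SE thus understates the spread of the heated QK pair. HSFA2 differed by 5.22 between heated A2QK and heated QK, and by 3.09 within number 2, whose heated QK array was the higher one. Against heated WT, heated A2QK stood at -1.62 for FES1A and -1.39 for HOP3, and at 0.17 for HSP26.5 and 0.05 for HSP17.6C, beside -1.45 for HSFA2.

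The comparisons of hsfa2 with WT and of A2QK with QK moved together across the array although they share no arrays. At 22 °C their differences correlated with r = 0.617 across the 22746 probe sets, and after heat with r = 0.306, where probe sets are not independent replicates. HSFA2 itself had -0.12 and 7.00 at 22 °C and -8.02 and 5.22 after heat. The knockout and the transgene act on this probe set directly, and an unheated loss could not be resolved. These values therefore cannot show whether HSFA2 shared in the shift. Among the linked genes called in unheated A2QK, HSP22 had 0.21 in unheated hsfa2 against WT beside 7.31, and HSP17.6C 0.12 beside 8.13. HSP26.5 had 0.25 beside 5.12, HSP15.7 0.32 beside 4.41, HSP17.6B 0.40 beside 5.95, HSA32 -0.23 beside 2.25 and ROF2 -1.97 beside 4.11. Same-numbered arrays of WT and QK deviated together from their group means across probe sets (r = 0.535 at 22 °C and 0.623 after heat). What part that or the shared shift has in these differences was not tested.

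The genes whose pattern over all 16 arrays was most like that of the HSFA2 probe set were ranked by Pearson correlation among 5089 single-gene probe sets whose group means ranged over at least 1 on the log2 scale. The arrays of a group share their condition, so these correlations are a description over 8 groups of 2. The first was AT2G25920 (r = 0.82), followed by SWEET10 (0.81), a sugar transporter gene, AT5G66090 (0.81), AT1G51340 (0.80), AT1G62010 (0.80) and HSP22 (0.79). AT5G50780 (0.79), AT2G34590 (0.79), HSP17.6C (0.78) and AT1G62950 (0.76) completed the 10. Of 4253 probe sets without a listed gene that met the same range, 2 correlated above the first of these and 10 above the tenth.

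These genes had far narrower ranges than HSFA2, apart from the 2 small heat shock proteins. AT2G25920 had levels of 5.55 and 5.95 in unheated WT and 6.56 and 6.66 in heated WT. It had 6.04 and 6.39 in heated hsfa2, 5.98 and 6.40 in heated QK, and 7.12 and 7.10 in heated A2QK, so its group means ranged over 1.42 beside 9.17 for HSFA2. It lies on chromosome 2 from 11054168 to 11056062, 79.6 kb from HSFA2. HSP22 and HSP17.6C matched HSFA2 in range (8.58 and 10.11) and in unheated A2QK, and departed from it in heated hsfa2, where both were high and HSFA2 was low. The linked genes as a whole had r of 0.54 to 0.79 with HSFA2.

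Over the 12 WT, hsfa2 and QK arrays the ranking was led by other genes, and 1 gene, AT2G25920, was among the 10 in both. The transgene is absent from these arrays, and the knockout weighs more. AT1G17600 (r = 0.89), UGT71B5 (0.87), a glucosyltransferase gene, AT4G17250 (0.87), AT1G35660 (0.85), AT2G25920 (0.85) and AT1G68140 (0.85) came first. AT5G25520, AT3G08960, AT5G47710 and AT3G59490 followed with 0.83 to 0.84. Of these, AT4G17250 had the widest range of group means, 6.03.

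AT4G17250 was at 4.39 and 5.09 in unheated WT and at 9.05 and 9.17 with heat. It was at 5.94 and 5.89 in heated hsfa2, from 3.47 and 2.69, and at 4.59 and 4.92 in heated QK, beside 4.73 and 5.18 without heat. Against heated WT the difference was thus -3.19 in heated hsfa2 and -4.36 in heated QK, values that the ranking used and that are given without a test. AT1G68140 was at 9.31 and 9.61 in heated WT, 8.16 and 8.27 in heated hsfa2, and 7.46 and 7.89 in heated QK.

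**Figure D4:**
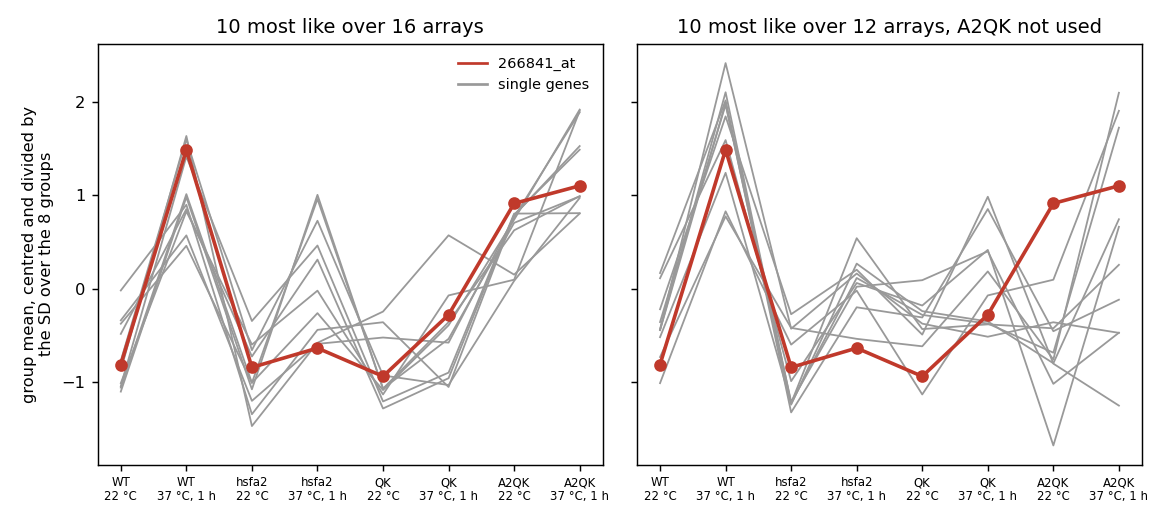
Group means of the HSFA2 probe set, in red, and of the 10 single genes most like it, in grey, over the 8 groups, each centred and divided by its SD over the groups (vertical axis, no unit). On the left the genes were ranked over 16 arrays and on the right over the 12 without A2QK, where all grey lines lie below the red one in unheated A2QK.

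The A2QK arrays were not used in the correlations of that second ranking, but they entered the limit on range, and 4 of the 10 genes met it only with A2QK included (UGT71B5, AT2G25920, AT5G25520 and AT5G47710). No count or median over the 10 is therefore given for A2QK. AT4G17250 and AT1G68140, whose group means ranged over 6.03 and 2.73 without A2QK, rose with heat in A2QK. Both were also higher with heat in hsfa2, which lacks HSFA2, with means from 3.08 to 5.91 and from 6.73 to 8.21. In A2QK, AT4G17250 went from 3.91 and 3.91 to 6.81 and 6.80 (2.89 ± 0.28, adjusted p = 4.5e-05). AT1G68140 went from 7.27 and 7.39 to 10.12 and 9.87 in A2QK (2.66 ± 0.18, adjusted p = 3.82e-06). AT1G17600, which also met the limit without A2QK, did not pass (-0.07 ± 0.19, adjusted p = 0.871), nor did AT1G35660 (0.69 ± 0.22, 0.0508), AT3G08960 (0.61 ± 0.26, 0.15) and AT3G59490 (0.12 ± 0.24, 0.808). In unheated A2QK, at an HSFA2 level of 9.77, AT4G17250 differed from unheated QK by -1.05 and AT1G68140 by -0.45. Of the others that met the limit without A2QK, AT3G08960 had a mean of 4.03 against 5.27 in unheated QK. AT1G17600 (2.51 and 2.50), AT1G35660 (3.69 and 3.68) and AT3G59490 (5.08 and 5.13) lay close to unheated QK. Unheated hsfa2 was also below unheated WT in AT4G17250 (3.08 against 4.74), AT1G68140 (6.73 against 7.51) and AT3G08960 (3.82 against 5.35). What part the shift shared by both comparisons, described above, has here was not tested.

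The 5 genes least like HSFA2 over 16 arrays had r of -0.73 to -0.75. They were AT5G11070, AT4G23930, AT2G41480, AT4G36550 and AT3G14800. AT5G11070 was at 8.44 and 8.22 in unheated WT and 6.90 and 7.51 in heated WT, and it was at 8.68 and 8.78 in heated hsfa2. Its heated arrays in A2QK (7.87 and 7.94) and QK (8.09 and 8.05) lay between those of WT and hsfa2.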

How the data were processed

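The authors deposited log2 values made with RMA from biotin-labelled RNA on Affymetrix arrays, per the submitters' processing notes. Its software and chip definition, and whether all arrays went through it at once, were not stated in what was used here. RMA sets arrays to similar distributions and compresses low levels. Of 22810 probe sets 64 controls were left out. The probe table gave 13513 with a single gene, 13436 matched to RefSeq (TAIR10.1), 503 with several and 8730 unlisted. Groups came from sample titles. Arrays have no read depth, and 2 per group limit the precision.

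A linear model over all probe sets (limma 3.58.1 under R 4.3.3) was moderated with eBayes, with a mean for each of 8 groups (8 residual and 3.37 prior degrees of freedom). The 10 comparisons were made, two-sided, with Benjamini-Hochberg adjustment within each. The fit and the ranking were tested on simulated data. The members and lists were chosen with earlier results of these data known. Named genes are the measured members of 3 lists, the 10 most and 5 least correlated genes over 16 arrays, the 10 most correlated over 12, and the 3 neighbours on either side. Alternatives covered scaling, a filter at a mean of 5, a replicate block, the variance model, the arrays fitted and each array left out. The shares of the WT heat rise without single arrays were added after seeing the data.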

Additional observations from a re-analysis of the deposited data

How the results depend on the processing

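Leaving out each array in turn moved the difference of the HSFA2 probe set with heat in QK from 2.49 to between 0.68 and 4.30, and that between heated A2QK and heated QK from 5.22 to between 3.41 and 7.03. With equal array medians the difference between heated and unheated hsfa2 was 0.97 instead of 0.78, and that between heated and unheated WT 8.83 instead of 8.69. This scaling moved all probe sets by a median of 0.19 in hsfa2, 0.14 in WT and 0.20 in A2QK with heat, and by -0.14 in heated QK against heated WT. At 22 °C the differences from WT turned sign with the WT array used: within number 1 they were 0.55 for hsfa2 and 0.34 for QK. Leaving out each array in turn gave -0.76 to 0.53 for hsfa2 and -1.12 to 0.17 for QK, the highest without the second unheated WT array. With the replicate block, the difference in WT with heat was again 8.69, since each group holds both numbers.

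For the 11 linked genes, 196 of 220 counts stayed within 1.5 times. Raised in QK by heat were 2 with the replicate block, 0 with the groups compared fitted alone, and 0 to 10 with each array left out. Fitted alone, the groups compared gave 11 raised with heat in A2QK instead of 8, 9 higher in unheated A2QK than in unheated QK instead of 7 (8 with the replicate block), 2 lower in heated QK than in heated WT and 7 higher in heated A2QK than in heated QK, instead of 11 each. Each array left out gave 0 to 1 for hsfa2 against WT and 0 to 1 for QK against WT at 22 °C. Without any 1 array, the counts were 6 to 9 for unheated A2QK against QK and 7 to 11 for heat in A2QK. Same-numbered arrays deviated together within WT (r = 0.795) and QK (r = 0.623) across probe sets, and between WT and QK (r = 0.535 at 22 °C and 0.623 after heat). The correlation was 0.0158 within hsfa2 and 0.152 within A2QK. The labels do not say that the numbers mark shared batches.

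Of the 10 genes most like HSFA2, 5 remained with Spearman correlation, 7 with group means, 9 with equal array medians, and 5 to 10 without any 1 array.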
